A study of Mus musculus with 6 samples.

Results

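The messenger RNAs of 81 cytosolic ribosomal protein genes were followed in the mouse pancreas, 49 of the large subunit and 32 of the small subunit. Members were the protein-coding genes named Rpl or Rps with a number (and an optional a, l or x), together with Rplp0, Rplp1, Rplp2, Rpsa and Fau, and the S6 kinase genes and pseudogenes were left out. All 81 had values among the 22556 genes of the deposited tables. An average of 1 TPM or more (a read count divided by gene length and scaled so that every library has the same sum) over the 6 mice was reached by 80 members and 16814 genes, and these were tested. The study asked how polyI:C, a synthetic double-stranded RNA that activates TLR3, acts on experimental acute pancreatitis (AP). RNA-sequencing of whole pancreas covered wild-type C57BL/6 mice of 8 weeks in 3 groups of 2. They were saline mice, AP mice that received caerulein, a cholecystokinin analogue given as repeated intraperitoneal injections, and mice given polyI:C before the same caerulein course (polyI:C AP mice). No transgene or engineered allele was present in any group.

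Each ribosome carries a single copy of nearly every ribosomal protein, and the genes for them are among the most strongly transcribed of a cell. Acinar cells, which make up most of the pancreas, hold very many ribosomes because they secrete digestive enzymes. Ribosomal protein messenger RNAs typically begin with a 5′ terminal oligopyrimidine (TOP) tract, through which mTOR signalling controls their translation, so their RNA level and their use by ribosomes can change separately. Only RNA levels were measured here.

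The members were abundant. Of the 81 genes, 42 averaged 1000 TPM or more over the 6 mice, 33 lay between 100 and 1000 TPM, and 6 lay under 100 TPM, with a median of 1042 TPM. The most abundant was Rplp1, a protein of the acidic stalk that recruits elongation factors, at 14050 TPM, followed by Rps12 at 10482 TPM, Rpl17 at 6930 TPM, Rpl8 at 6381 TPM and Rps7 at 6355 TPM. All these levels are per length. The low end held the paralogues Rpl10l (mean 1.14 TPM), Rpl39l (1.44 TPM) and Rpl3l (0.63 TPM), known from testis for the first pair and from muscle for Rpl3l, and also Rpl24 (3.96 TPM), Rpl13a (16.4 TPM) and Rpl23a (83.8 TPM). Rpl24 and Rpl13a encode core proteins of the large subunit. In the GENCODE M21 annotation 47.0% of the exon bases of Rpl24 and 35.4% of those of Rpl13a also lie in another gene of the same strand, and no other member exceeded 30%. With genes of either strand counted, the share was 62.3% in Rpl23a and 66.2% in Rpl35, which averaged 261 TPM. Of the 100-base stretches of Rpl24, 49.0% also occur in transcripts of other genes. At least 1 such shared stretch was found in 74 members, with a median of 14.2% of stretches over all 81. How far shared sequence moved the TPM of these members was not tested.

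The start of the transcript is shown for the members with the longest pyrimidine runs (Rpl27a, Rpl15, Fau and Rpl35), for Rps6, and for some of the members compared below. The sequences are from RefSeq (GRCm38.p6), which gave a start for 61 of the 81 members, and each covers 10 bases before the annotated first base and 20 bases from it on. Capitals mark the longest unbroken run of C and T, on the transcribed strand, that begins with C within 5 bases of the annotated start and is at least 5 bases long. Bases more than 5 ahead of the start are not marked or counted, even where they continue the run, as in Rpl35.
Fau (chr19:6057937-6057966, plus strand): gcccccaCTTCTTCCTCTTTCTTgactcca
Rpl15 (chr14:18270967-18270996, minus strand): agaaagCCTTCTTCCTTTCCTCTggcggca
Rpl35 (chr2:39005112-39005141, minus strand): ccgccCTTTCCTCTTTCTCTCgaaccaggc
Rpl27a (chr7:109519185-109519214, plus strand): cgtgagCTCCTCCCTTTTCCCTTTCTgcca
Rps6 (chr4:86857348-86857377, minus strand): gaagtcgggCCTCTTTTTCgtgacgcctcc
Rps18 (chr17:33955646-33955675, minus strand): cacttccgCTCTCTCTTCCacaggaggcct
Rps27 (chr3:90213629-90213658, minus strand): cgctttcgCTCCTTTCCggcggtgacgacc
Rps27l (chr9:66946076-66946105, plus strand): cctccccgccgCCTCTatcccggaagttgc
Rps16 (chr7:28350679-28350708, plus strand): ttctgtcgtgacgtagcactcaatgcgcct
Rpl10 (chrX:74270806-74270835, plus strand): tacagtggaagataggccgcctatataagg
The run is 20 bases long in Rpl27a, 17 in Rpl15 and 16 in Fau and Rpl35, against 9 in Rps27 and 5 in its paralogue Rps27l, while the windows of Rps16 and Rpl10 hold none. Such a run was present at a start of 29 of 61 members (47.5%), against 21.1% of 26964 other genes. A run that begins with C at the annotated first base itself was present in 23.0% of the members against 2.96% of the other genes. A match describes the letters at an annotated start and not a tested TOP tract.

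On the TPM scale as deposited, the median ribosomal protein messenger RNA in AP mice was close to its level in saline mice, while the median of all genes lay higher. With limma on log2(TPM + 0.5), no member was called at an adjusted p of at most 0.05 and a change of at least 2-fold in either direction. Of all genes tested, 18.2% were called up and 4.02% down by this rule. The median difference of the 80 members was -0.022 on the log2 scale, with quartiles of -0.15 and 0.093, against a median of 0.45 for all genes, and 78 of 80 members lay below the latter. The 95% interval of the difference lay within 2-fold for 76 members, and the exceptions were the low genes Rpl10l, Rpl13a, Rpl24 and Rpl39l. The median was -0.019 for the 48 tested large subunit genes and -0.036 for the 32 small subunit genes.

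**Figure D1:**
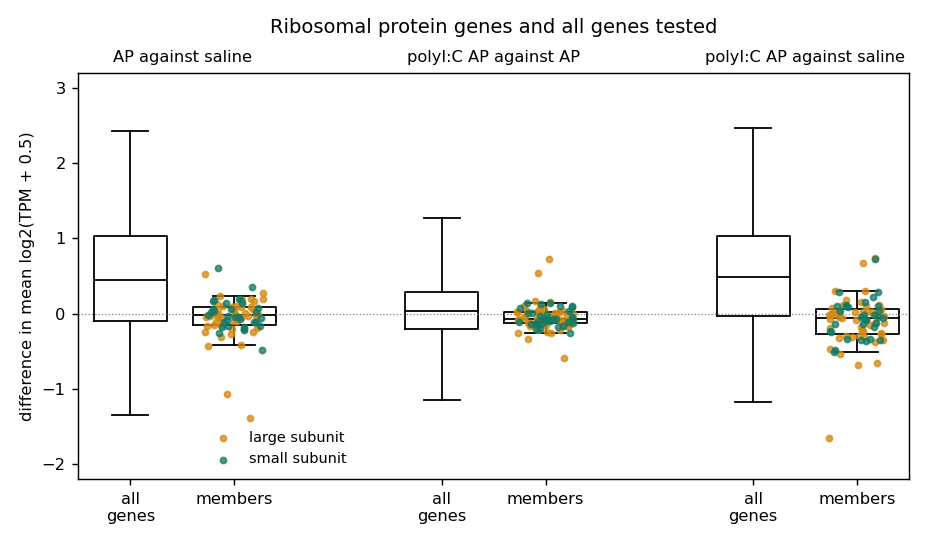
Difference in mean log2(TPM + 0.5) for all 16814 genes tested and for the 80 members, in each of the 3 comparisons. Boxes give the quartiles and the median, whiskers the 5th and 95th percentiles, and points are single members of the large or small subunit. In AP against saline mice the members centre on -0.022 and all genes on 0.45.

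Without the fold rule, 2 members rose in AP mice and 5 fell, against 33.0% of all genes up and 7.39% down. At an unadjusted p under 0.05 these counts were 4 and 7, or 5.0% and 8.75% of the 80 members, beside 39.4% and 9.51% of all genes. Every one of the 7 calls lay below 2-fold.

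The largest rise was that of Rps27l, a paralogue of Rps27 that is known as a target of p53 (chr9:66946086-66949516, plus strand). Saline mice had 626 and 690 TPM, AP mice 917 and 1105 TPM, and polyI:C AP mice 1040 and 1129 TPM. Both caerulein groups lay above both saline mice. The difference between AP and saline mice was 0.61 ± 0.12 (SE), a rise of 53.1% (limma adjusted p = 0.0072), and without AP mouse 2 it was 0.48 with an adjusted p of 0.064. Median-of-ratios scaling, with the typical gene as the reference, put the difference at 0.18 with an adjusted p of 0.305, so the call was not kept. Rps27 itself, which differs little from Rps27l in protein sequence, was at 574 and 575 TPM in saline mice, 567 and 599 TPM in AP mice, and 595 and 686 TPM in polyI:C AP mice, a difference of 0.021 between AP and saline mice that did not pass the test as deposited but was -0.41 with an adjusted p of 0.028 after median-of-ratios scaling. Within a mouse, where the scaling of the library cancels, Rps27l stood at 1.09 and 1.20 times the TPM of Rps27 in saline mice, at 1.62 and 1.84 times in AP mice and at 1.75 and 1.65 times in polyI:C AP mice. The ratio of either AP mouse exceeded that of either saline mouse (two-sided exact permutation p = 0.333, the smallest that 2 against 2 mice can give). No 100-base stretch of Rps27l occurs in another gene, while 20.4% of those of Rps27 do. The other paralogues were minor, Rpl3l, Rpl10l and Rpl39l holding at most 0.241%, 0.142% and 0.355% of the sum with Rpl3, Rpl10 and Rpl39 in any mouse.

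The other rise was that of Rps16, a protein of the small subunit (chr7:28350652-28353155, plus strand). Its 724 and 776 TPM in saline mice stood against 938 and 990 TPM in AP mice and 887 and 942 TPM in polyI:C AP mice. The AP mice did not overlap the saline mice, and the difference between AP and saline mice was 0.36 ± 0.090 (SE), with a limma adjusted p of 0.018. That call was not kept without saline mouse 1 (adjusted p = 0.051), AP mouse 1 (0.072) or AP mouse 2 (0.118), and median-of-ratios scaling turned the difference to -0.069. Of the 100-base stretches of Rps16, 27.1% occur in pseudogenes too.

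**Figure D2:**
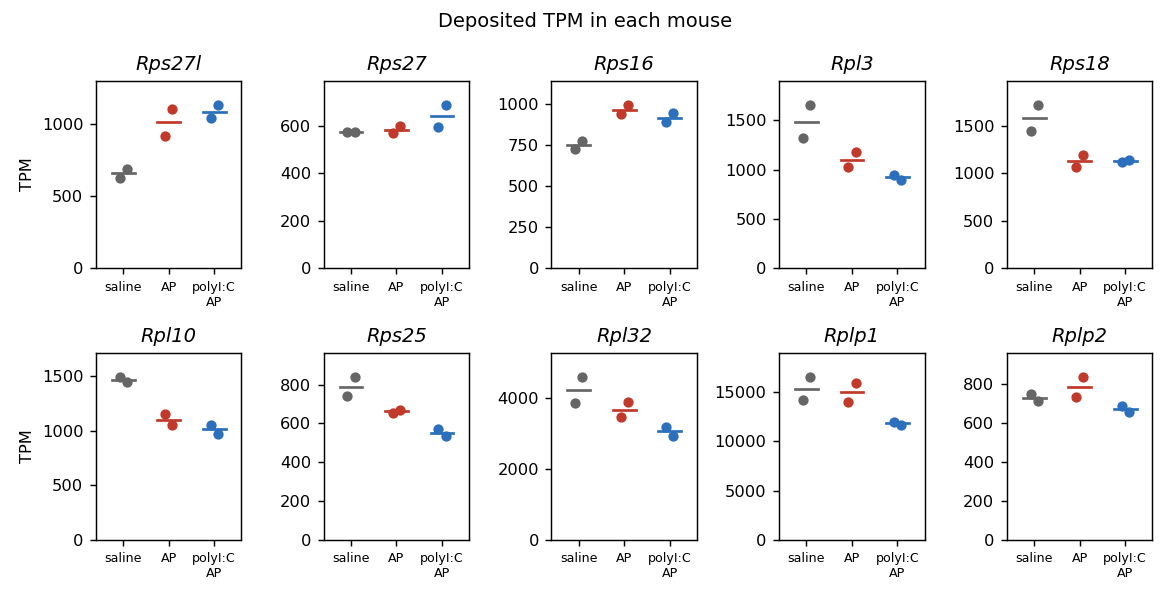
Deposited TPM of 10 members in each mouse, as points, with group means as lines and each axis starting at 0. Rps27l lies at 626 and 690 TPM in saline mice and at 917 TPM or more in the other 4 mice, while Rps27 stays between 567 and 686 TPM in all 6.

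The members that fell in AP mice included Rps18, Rpl3, Rpl10 and Rpl21. Rps18, a small subunit protein at the head of the particle (chr17:33951999-33956001, minus strand), was at 1446 and 1718 TPM in saline mice, 1071 and 1195 TPM in AP mice and 1121 and 1143 TPM in polyI:C AP mice. It fell by 28.2% in AP mice (limma adjusted p = 0.018), with no overlap between AP and saline mice. Rpl3, which lies close to the peptidyl transferase centre (chr15:80077791-80091868, minus strand), was at 1320 and 1653 TPM, then 1023 and 1177 TPM, then 949 and 899 TPM in the same order of groups, and fell by 25.7% in AP mice (limma adjusted p = 0.047). Rpl10, a protein added late in the assembly of the large subunit (chrX:74270812-74273135, plus strand), was at 1491 and 1446 TPM in saline mice, 1150 and 1055 TPM in AP mice and 1050 and 973 TPM in polyI:C AP mice. It fell by 0.41 on the log2 scale in AP mice (limma adjusted p = 0.014). Rpl21, named after its values were seen, fell by 16.7% (limma adjusted p = 0.046). In these 4 genes every AP mouse lay below every saline mouse, as in 17 of the 80 members, while 9 members lay above. The share of all genes without overlap is not given here for this comparison. The calls on Rpl10, Rpl3 and Rps18 were each lost without either AP mouse, where the adjusted p ranged from 0.053 to 0.26, and no member, Rpl21 included, was called down without either of them. The calls on Rpl3 and Rps18 were also lost without saline mouse 2 (0.155 and 0.056) or polyI:C AP mouse 1 (0.118 and 0.062). Rpl3 also lost its call without polyI:C AP mouse 2 (0.098).

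**Figure D3:**
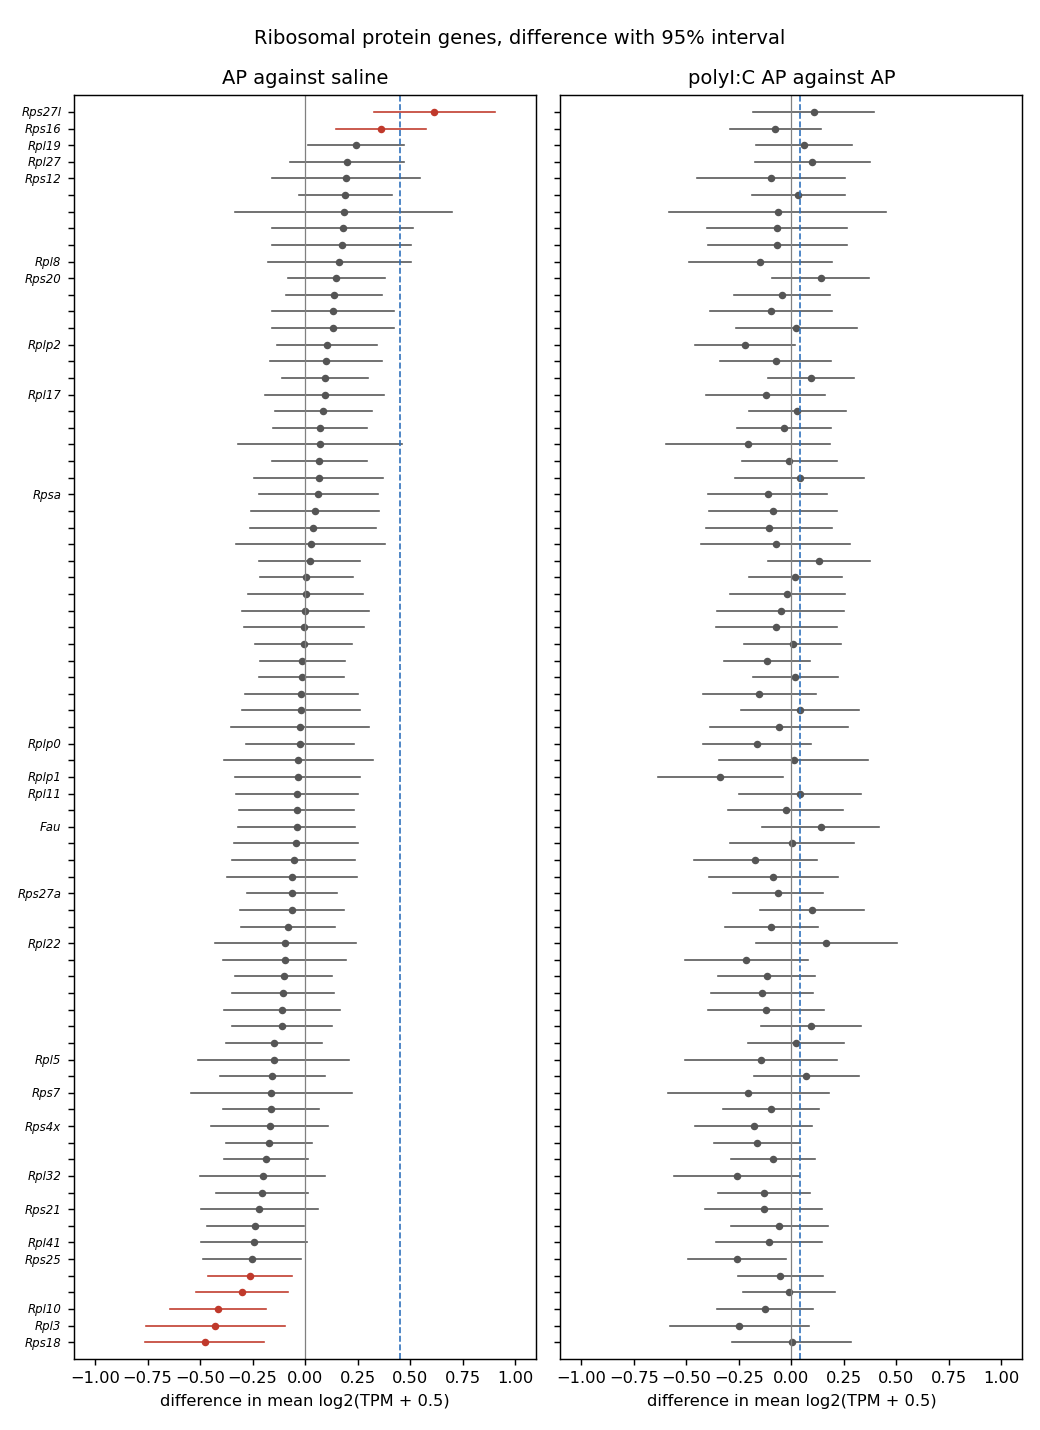
Difference in mean log2(TPM + 0.5) with its 95% interval for the 75 members that had an estimated 100 reads or more in every mouse, ordered by AP against saline, with names for the genes of the naming rule. Red marks an adjusted p of at most 0.05 and the dashed line the median of all genes. In AP against saline mice 7 genes are red, from Rps18 at -0.48 to Rps27l at 0.61, and in polyI:C AP against AP mice none is.

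The TPM of a library sum to a fixed total, and the composition of that total differed between the groups. The 13 non-member genes above 1% of any library, digestive enzyme and other secretory genes such as Sycn, Spink1 and Klk1 among them, held 28.0% and 24.8% of the TPM in saline mice, 16.6% and 13.9% in AP mice and 14.0% and 13.1% in polyI:C AP mice. This sum mixes directions. Sycn was at 98753 and 86866 TPM in saline mice and 31898 and 21348 TPM in AP mice. Krt8, a duct marker, was at 889 and 983 TPM in saline mice and 15874 and 17678 TPM in AP mice. The 81 members together held 14.2% and 16.1% in saline mice, 14.2% and 15.7% in AP mice and 13.9% and 13.8% in polyI:C AP mice. The members' share in AP mice overlapped that in saline mice, with a ratio of means of 0.985 (two-sided exact permutation p = 0.667). Only 17 of 37 listed acinar genes had values, and the digestive enzyme genes Cpa1, Cela1 and Pnlip had none. These shares therefore cover the deposited genes alone, and how the missing genes would change them was not tested.

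**Figure D4:**
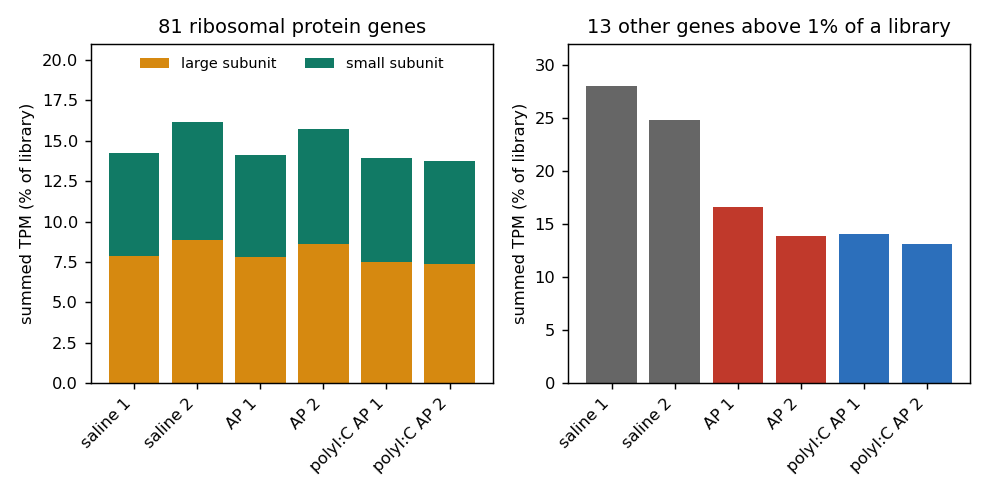
Summed TPM as a percentage of the library in each mouse, for the members split by subunit (left) and for the 13 other genes above 1% of any library (right). Members hold between 13.8% and 16.1% in all 6 mice, and the other genes 24.8% or more in saline mice and 16.6% or less in the rest. Genes without deposited values are in neither sum.

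Under median-of-ratios scaling, which takes the typical gene as the reference in place of the TPM sum, the median of the members in AP mice was -0.45 and that of all genes 0.057. By that scaling 52 of 80 members were called down and 0 up, where 14.7% of all genes were down and 17.5% up. The position of the members relative to the median of all genes was close in both, at -0.47 as deposited and -0.51 after median-of-ratios scaling, but it was -0.045 after quantile normalization, which gives all libraries 1 distribution of values. Whether the members held their level or fell thus turned on the reference, and in bulk tissue fewer cells of a type and less RNA per cell cannot be told apart. Measured against the median of the members in place of the TPM sum, Rps27l and Rps16 were higher in AP mice, against 31.9% of all genes, and Rpl3 and Rps18 lower, against 5.93%. Rps27l stood 0.65 above the members' median (limma adjusted p = 0.0035) and Rps18 stood 0.44 below it (difference -0.44, adjusted p = 0.012). No member was lower by this measure without saline mouse 2 or AP mouse 1, and 1 was lower without AP mouse 2 or without either polyI:C AP mouse. A single member was higher without saline mouse 2 or without either AP mouse.

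Cell type markers moved between the groups as well. Summed over the 17 of 37 listed acinar genes that had values, markers ranged over 137653 to 149324 TPM for saline mice, 46270 to 65979 TPM for AP mice, and 43848 to 45757 TPM for polyI:C AP mice. Of the 5 defining acinar markers, Ptf1a and Bhlha15 had values, and neither was at 0. The pancreatic transcription factor Ptf1a was at 44.5 and 40.8 TPM in saline mice, 55.2 and 43.4 TPM in AP mice and 67.3 and 98.3 TPM in polyI:C AP mice. Bhlha15, a transcription factor of secretory cells, was at 391 and 326 TPM, 53.6 and 46.4 TPM, and 161 and 171 TPM. Much of the acinar sum was Sycn, a zymogen granule protein, at 98753 and 86866 TPM, 31898 and 21348 TPM, and 14466 and 11044 TPM. In polyI:C AP against AP mice, 4 of the 15 tested acinar genes were called up and 0 down, with a median of 0.55, while the sum was lower. The 13 duct markers summed to 2483 to 2787 TPM, 34048 to 36412 TPM and 25381 to 32319 TPM in the same order. For 24 of 25 leukocyte markers the sums were 415 to 620 TPM, 2559 to 2865 TPM and 470 to 578 TPM, with Cd3e at 0 in a library of each caerulein group. Estimated reads behind a library ranged from 3297000 and 3973000 in the saline mice to between 6933000 and 10849000 in the other 4. The part of cell composition and of depth in the ribosomal protein values was not tested.

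Mice of the same group also differed across the members as a set. AP mouse 2 exceeded AP mouse 1 in 70 of 80 members by a median of 0.14 on the log2 scale, and saline mouse 2 exceeded saline mouse 1 in 67 of 80 by 0.17, while the median over all genes was 0.012 and 0. The polyI:C AP mice differed by a median of -0.0076. On the deposited TPM scale, a shift of this size between mice of a group exceeds the members' median difference between AP and saline mice (-0.022). After median-of-ratios scaling that median difference was -0.45.

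Between polyI:C AP and AP mice no member was called at any fold, with limma, where 0.714% of all genes were up and 0.523% down, and 0.434% up and 0.404% down at 2-fold or more. At an unadjusted p under 0.05, 2 members were lower (Rplp1 and Rps25) and 0 higher, beside 6.11% and 7.90% of all genes. The median difference was -0.067 for the members and 0.039 for all genes, with 63 of 80 members below the latter. These groups did not overlap in 28 members that were lower after polyI:C and in 5 that were higher (Fau, Rpl13a, Rpl15, Rpl24 and Rps20), against 22.1% and 27.7% of all genes. Against the median of the members, 0 were called in either direction, with 0.357% of all genes up and 0.244% down. The 95% interval lay within 2-fold for 77 members, all but Rpl10l, Rpl24 and Rpl39l.

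Among the stalk genes, Rplp1 was at 14187 and 16523 TPM in saline mice, 14032 and 15914 TPM in AP mice and 11954 and 11689 TPM in polyI:C AP mice. Both polyI:C AP mice lay below the other 4, and the difference from AP mice was -0.34 ± 0.12 (SE) with a limma adjusted p of 0.294. Rplp2, its partner in the stalk, was at 747 and 711 TPM, 732 and 836 TPM, and 687 and 656 TPM, a difference of -0.22 between the caerulein groups (limma adjusted p = 0.399). Rplp0, which anchors both to the ribosome, was at 3529 and 3796 TPM, 3498 and 3699 TPM, and 3372 and 3054 TPM, a difference of -0.16 (limma adjusted p = 0.577). All 3 stalk genes were lower in both polyI:C AP mice than in both AP mice, as were 22.1% of all genes and 28 of the 80 members, and none passed the test. The ratio of summed TPM of the large to the small subunit genes was 1.23 and 1.22 in saline mice, 1.22 and 1.20 in AP mice and 1.17 and 1.16 in polyI:C AP mice. Without Rplp1 it was 1.01 and 0.995, 1.00 and 0.975, and 0.986 and 0.978, so that the 2 caerulein groups overlapped.

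Against saline mice, polyI:C AP mice had 4 members up and 11 down at any fold, where 33.3% of all genes were up and 5.73% down, and 0 in either direction at 2-fold or more, where 16.8% and 2.95% were called. Counts at an unadjusted p under 0.05 were 7 and 18, beside 40.6% and 7.65% of all genes. These comparisons share their saline mice with the one above. The rises were Rps27l (0.72 ± 0.12, limma adjusted p = 0.0041), Rpl13a, Rpl19 and Rps16. The count of 4 fell to 1 when saline mouse 1 or any single AP or polyI:C AP mouse was left out, and stayed at 4 without saline mouse 2. Median-of-ratios scaling left Rps27l at 0.27 (adjusted p = 0.16), Rpl19 at -0.15 and Rps16 at -0.17, none of them called. Rpl13a, known as a subunit released from the ribosome on interferon signalling, was at 10.5 and 13.8 TPM in saline mice, 16.7 and 18.3 TPM in AP mice and 18.7 and 20.4 TPM in polyI:C AP mice, which rests on an estimated 32 to 142 reads per library. Its difference from saline mice was 0.68 (limma adjusted p = 0.048), and 12 of 16 alternatives left it above 0.05.

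The falls in polyI:C AP mice included Rpl3, Rpl10, Rps25, Rps18, Rpl32 and Rpl41, and, named after their values were seen, Rps29, Rps28, Rpl21 and Rpl10a. Rpl3 fell by 37.4% (limma adjusted p = 0.0089), Rpl10 fell by 31.2% (0.0052), and the call on Rpl10 was kept in all 16 alternatives. Rps25, a small subunit protein known for its part in internal initiation on viral messenger RNAs, was at 741 and 838 TPM in saline mice, 654 and 669 TPM in AP mice and 569 and 536 TPM in polyI:C AP mice. Its groups did not overlap, and it fell by 29.9% against saline mice (limma adjusted p = 0.0069). The difference between its polyI:C AP and AP mice was -0.26 (adjusted p = 0.305). The count of 11 falls ranged from 1 to 15 when single mice were left out, with 1 and 2 without polyI:C AP mouse 2 and mouse 1, and 3 without either AP mouse. With median-of-ratios scaling 55 members were down, where 12.3% of all genes were, and 0 were up, where 15.0% were. The median of the members was -0.050 and that of all genes 0.48 on the deposited scale, and -0.51 and 0.062 after that scaling. Against the members' median, Rpl13a, Rpl19, Rpl27, Rps16, Rps20 and Rps27l were higher, where 33.5% of all genes were, and Rpl10, Rpl3, Rpl32, Rpl41, Rps18, Rps21 and Rps25 were lower, where 4.54% were. These 6 rises and 7 falls came to 1 to 4 and 1 to 5 when single mice were left out, with 1 and 1 without either polyI:C AP mouse, 3 and 3 without saline mouse 1, 2 and 3 without saline mouse 2, and 4 and 5 without either AP mouse, and quantile normalization gave 1 rise and 10 falls.

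Rpl32 served as the internal control of the study's quantitative PCR. It was at 3881 and 4600 TPM in saline mice, 3460 and 3893 TPM in AP mice and 3202 and 2933 TPM in polyI:C AP mice. The saline and AP ranges overlapped, and both polyI:C AP mice lay below the other 4. The difference was -0.20 ± 0.12 (SE) in AP against saline mice (limma adjusted p = 0.245), -0.26 ± 0.12 in polyI:C AP against AP mice (0.425) and -0.46 ± 0.12 in polyI:C AP against saline mice (0.026), and 8 of 16 alternatives kept the last call. Median-of-ratios scaling put the differences from saline mice at -0.63 in AP mice (adjusted p = 0.0096) and -0.92 in polyI:C AP mice, both called. The primers listed for it are shown because the reverse primer also occurs in transcripts of Rpl32l and Gm4987, while the forward primer matches Rpl32 alone.
Forward: gaagttcatcaggcaccagtc
Reverse: gagcaatctcagcacagtaaga
They enclose 248 bases of the Rpl32 transcript.

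On the TPM scale the following members of particular roles had no called change between AP and saline mice, whereas median-of-ratios scaling called Rpl5 (-0.58), Rpl11 (-0.47), Rps27a (-0.49), Fau (-0.47) and Rps4x (-0.60) lower and did not call Rpsa (-0.37). Rpl5 and Rpl11, which with the 5S ribosomal RNA form the particle known to bind the p53 regulator Mdm2, differed by -0.15 and -0.038 (limma adjusted p = 0.472 and 0.844). Rps27a, translated as a fusion with ubiquitin, went from 939 and 1029 TPM in saline mice to 940 and 943 TPM in AP mice and 889 and 914 TPM in polyI:C AP mice. Fau, the fusion gene of Rps30, was at 1619 and 1869 TPM, 1566 and 1827 TPM, and 1858 and 1868 TPM, and Rpsa, also known as the laminin receptor, differed by 0.063 between AP and saline mice. The X-linked Rps4x differed by -0.17 (limma adjusted p = 0.295). The 29 tested members with a pyrimidine run at a start had a median difference of 0.0053 in AP against saline mice and the 31 without had -0.095, both given as a description without a test.

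The 7 ribosomal protein genes that fall outside the naming rule gave 0 calls with limma in AP against saline mice, and 0 at an unadjusted p under 0.05, while after median-of-ratios scaling 2 were down (Rps3a1 and Rpl36al), 0 up and the median was -0.46. Rps3a1 was at 7306 and 8781 TPM in saline mice and 7065 and 7506 TPM in AP mice, and Rack1, a scaffold on the small subunit, differed by 0.052.

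Other genes of ribosome production and of translation were counted by the same test at any fold in AP against saline mice, where 33.0% of all genes were up. Of 61 ribosome biogenesis factors, 49 rose and 0 fell, with a median of 0.93. Beside 18.2% of all genes, 20 of these factors rose 2-fold or more. Among them Noc4l, of the small subunit processome, went from 5.36 and 4.10 TPM in saline mice to 25.05 and 25.4 TPM in AP mice, and Rpf2, which helps to place the 5S particle, went from 7.64 and 7.95 TPM to 26.8 and 29.8 TPM. Nhp2, of the box H/ACA particles that modify ribosomal RNA, went from 60.9 and 66.3 TPM to 181 and 223 TPM. The AP mice lay above the saline mice in all 3. After median-of-ratios scaling 29 of the 61 were called up and 0 down, beside 17.5% and 14.7% of all genes. The list's median was then 0.51, while the median of the cytosolic ribosomal proteins was -0.45. Of 77 mitochondrial ribosomal protein genes, 55 rose and 2 fell, with a median of 0.66, and after median-of-ratios scaling 22 were up and 3 down. Mrps6 went from 7.52 and 6.53 TPM to 24.2 and 32.3 TPM. Their summed TPM went from 0.300% and 0.353% of the library in saline mice to 0.472% and 0.511% in AP mice without overlap (two-sided exact permutation p = 0.333, the smallest possible).

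**Figure D5:**
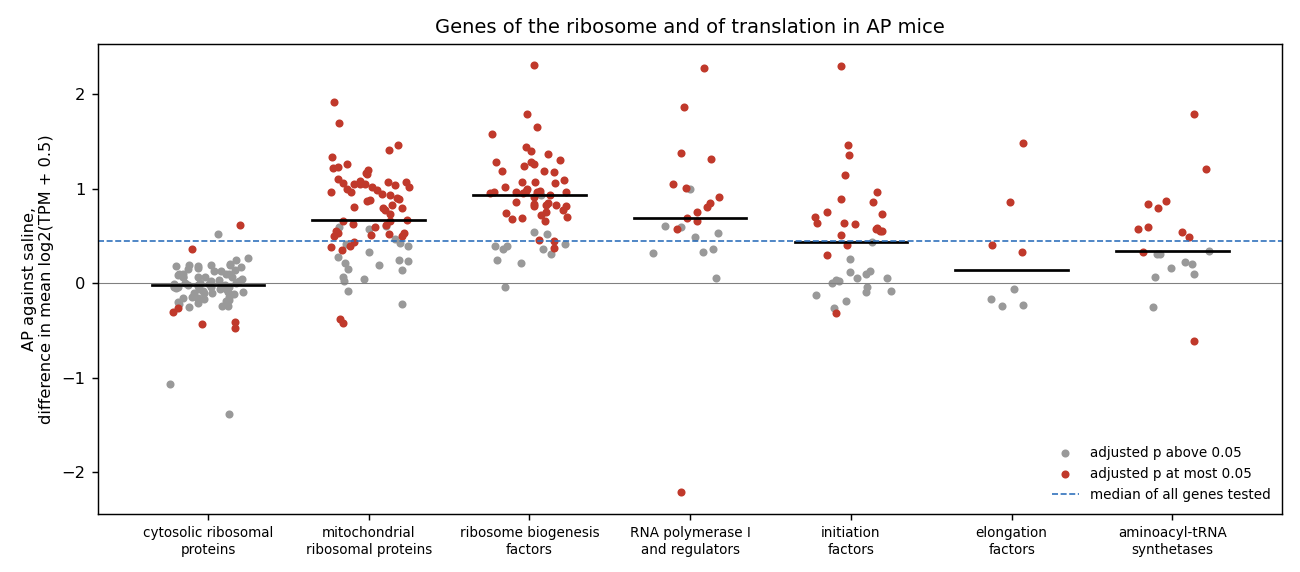
Difference in mean log2(TPM + 0.5) between AP and saline mice for single genes of 7 lists, with the list's median as a bar and the median of all genes tested, 0.45, as a dashed line. The 80 cytosolic ribosomal protein genes lie around -0.022, while the 61 biogenesis factors have a median of 0.93 and the 77 mitochondrial ribosomal protein genes one of 0.66.

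Among 37 initiation factors 20 rose and 1 fell, with a median of 0.43, and after median-of-ratios scaling 6 were up and 10 down with a median of 0.0034, where 17.5% of all genes were up and 14.7% down. The largest rise was that of Eif6, which keeps the large subunit from joining too early and acts in its maturation, from 42.3 and 62.2 TPM in saline mice to 239 and 272 TPM in AP mice (2.30 ± 0.18 on the log2 scale). Of 23 genes of the RNA polymerase I list 13 rose and 1 fell, and after median-of-ratios scaling 7 were up and 2 down. Polr2f, a subunit shared by the RNA polymerases, went from 102 and 112 TPM to 509 and 536 TPM, while Mycn fell from 14.0 and 9.66 TPM to 3.01 and 1.44 TPM. Elongation factors gave 4 rises of 8 with a median of 0.14 as deposited, but 1 up and 4 down with a median of -0.29 after median-of-ratios scaling. Cytosolic aminoacyl-tRNA synthetases gave 10 rises of 20 with 1 fall and a median of 0.34, and by the other scaling 5 up and 3 down with a median of -0.092. Of 18 other genes known for TOP messenger RNAs, some of which are also in the lists above, 6 rose, among them Hnrnpa1, and the median was 0.11, against 3 up and 6 down with a median of -0.31 after median-of-ratios scaling. In the mTOR and S6 kinase list 8 of 21 rose and 1 fell, beside the 33.0% of all genes that were up, and after median-of-ratios scaling 5 were up and 5 down with a median of -0.098. Its largest rises were those of Sesn2 and Ddit4, both known as inhibitors of mTOR complex 1, from 22.3 and 22.8 TPM to 101 and 86.3 TPM and from 139 and 96.0 TPM to 353 and 397 TPM. Between polyI:C AP and AP mice limma called 0 genes of these lists, each of which held 1 to 8 genes at an unadjusted p under 0.05.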

How the data were processed

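Total RNA of whole pancreas was sequenced for 6 mice, 2 of each of the saline, AP and polyI:C AP groups, and groups and replicate numbers were taken from the sample labels. The authors deposited TPM per gene and mouse, and the submitters' processing notes name Trimmomatic, STAR, HTSeq, DESeq2 and mm10. The labels name a ribosomal RNA depletion kit with a directional library kit and also a stranded messenger RNA kit, and the study's methods name the latter alone. The effect of the kit on the TPM was not tested. The step from counts to TPM was not given in the sources used here. Symbols and coordinates came from GENCODE M21 (GRCm38), in which 22490 of the 22556 identifiers were found.

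Values of log2(TPM + 0.5) for the 16814 genes averaging 1 TPM or more were fitted with limma 3.58.1 in R 4.3.3, with 1 coefficient per group, all 6 mice sharing the spread, and a prior on the variance that follows mean TPM times exon length. Adjusted p values are Benjamini-Hochberg over all tested genes of a comparison, and a fold change is on the log2(TPM + 0.5) scale. The model was run on simulated reads with set changes, and most of the simulated 2-fold changes were not called. Single sums and ratios were compared with two-sided exact permutation tests. Reads per library were estimated from the spacing of low TPM values, of which 50.7% to 62.0% fell within 0.1 of a whole multiple, so these estimates are approximate. Labels do not say that mice were raised or handled separately, so p-values measure the spread between these samples.

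The members, the gene lists and the tests were chosen with earlier results of these data known. Named with values are members past 2-fold, the 5 largest rises and falls of the comparisons of AP with saline and of polyI:C AP with AP, the 5 highest and 5 lowest in TPM, the stalk genes, Rpsa, Fau, Rps27a, Rpl32, Rpl13a, Rpl5, Rpl11, suffixes l or x, members called relative to the members' median, ribosomal proteins outside the name pattern, and at most 3 genes of a further list. Alternatives were other pseudocounts, filters, scalings and priors, the replicate number as a block, and each mouse left out in turn. Values of a few single genes are not reported here.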

Additional observations from a re-analysis of the deposited data

How the results depend on the processing

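With 2 mice per group and members changing by less than 2-fold, counts of calls at any fold moved with the settings, while counts at 2-fold or more stayed at 0 in every alternative except 1 fall in polyI:C AP against saline mice under median-of-ratios scaling. Comparisons of polyI:C AP with AP mice gave 0 members in all 16 alternatives. Median-of-ratios scaling gave, in AP against saline mice, 0 rises, 52 falls, a median of -0.45 and a summed TPM ratio of 0.730, and against saline in polyI:C AP mice 0, 55, -0.51 and 0.664. Rescaling without the genes above 1% of a library gave 1 rise, 22 falls, -0.23 and 0.852, and 1, 31, -0.30 and 0.770. All genes then had medians of 0.26 and 0.26, and the share of all genes called under that rescaling is not given here. Among the members of the naming rule and Rps27, reversed directions were found under median-of-ratios scaling alone, counted where a value passed the threshold in either setting: Rps16 at -0.069, Rplp2 at -0.33 and Rps27 at -0.41 in AP mice, and Rpl11 at -0.45, Rpl19 at -0.15 and Rps16 at -0.17 in polyI:C AP mice. A further 86 sign changes were among uncalled values.

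Without a trend in the prior, AP mice had 1 rise and 0 falls, and polyI:C AP mice 1 and 3. Against the members' median these were 1 and 0, and 2 and 1. Quantile normalization gave 2 rises in polyI:C AP mice, and against the members' median 1 rise and 6 falls in AP mice and 1 rise in polyI:C AP mice. A prior following the mean log2 value gave 2 rises in polyI:C AP mice and 4 against the members' median in AP mice. The cause was not tested.

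Leaving out single mice gave 0 to 3 rises and 0 to 5 falls in AP mice, 1 to 4 and 1 to 15 in polyI:C AP mice against saline, and against the members' median 1 to 2 and 0 to 2, and 1 to 4 and 1 to 5. The median of the members in polyI:C AP against saline mice then ranged from -0.15 to 0.027. Fewer residual degrees of freedom remain in these fits, and the lone mouse is assumed to vary like the others.

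Over all 16814 genes tested, deviations from the group means correlated at 0.0075, 0.035 and -0.0039 between mice of the same replicate number. Among the 80 tested members, mouse 2 was higher in 67 in saline, 70 in AP and 36 in polyI:C AP mice. Whether mice of the same number shared more than the number was not tested. With the replicate block 3 members fell in AP mice in place of 5, and 2 rose.

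Of the members under 100 TPM, Rpl24, Rpl10l, Rpl39l and Rpl3l rest on few reads, an estimated 2 to 22 per library for Rpl24. Rpl13a had an estimated 32 to 142 reads per library and Rpl23a 83 to 205. Differences of Rpl10l, Rpl39l and Rpl24 were not detectable at this depth.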
